A study of Rattus norvegicus with 50 samples.

Results

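The effect of the AMPK activator MK-8722 at 10 mpk (the dose unit of the labels) on the kidney cortex of obese ZSF1 rats was read in 10 of the 50 RNA libraries of the study. The tested animals were obese ZSF1 rats given MK-8722 at 10 mpk with a treatment time of 28 weeks (5 libraries), and they were set against obese ZSF1 rats given vehicle (5 libraries). All 10 libraries were chosen by sample title and not by any measured value. The labels give an age of 20 weeks beside the treatment time of 28 weeks, so the age cannot refer to the end of treatment and was not used. Medulla of the same treatments (5 libraries each) served only to place the results. So did cortex and medulla of obese rats on MK-8722 at 1 mpk, obese rats on enalapril at 10 mpk and lean rats on vehicle (5 libraries for each group and tissue). The RNA was stranded total RNA from flash-frozen cortex after removal of ribosomal RNA, with 1 µg entering each library. The labels do not say that the libraries of a group came from separate rats, so p-values measure the spread between libraries. A cortex library mixes tubule, glomerular, vascular and immune cells, and fewer cells of a type and less RNA per cell cannot be told apart.

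AMP-activated protein kinase (AMPK) is a heterotrimeric enzyme that responds to falling cellular energy. When active it phosphorylates acetyl-CoA carboxylase and other enzymes, which slows fatty acid and sterol synthesis and favours fat oxidation. MK-8722 is a small molecule that activates AMPK complexes directly, through an allosteric site. The obese ZSF1 rat carries leptin receptor mutations and develops obesity, diabetes and progressive kidney disease, while the lean ZSF1 rat does not become obese. The authors deposited expression by Ensembl gene ID without gene names, and 0 of 32545 IDs could be paired with a name. The results are therefore given by ID, without roles, and the labelled tissue was not checked against marker genes.

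The FPKM values (fragment counts divided by transcript length and by the library's mapped fragments) were read on 2 scales. The first was the deposited FPKM. For the second, each library was divided by its median ratio to the average cortex library, and these values are called rescaled below. The libraries differed by group before any gene was tested. The rescaling factor was 0.958 ± 0.0752 in MK-8722 10 mpk and 1.10 ± 0.0940 in obese vehicle libraries (SD, n = 5 each; exact two-sided permutation test, p = 0.0397, adjusted over 3 measures p = 0.0476). The 20 most abundant IDs held 70.4% ± 2.91 of the summed FPKM with MK-8722 10 mpk and 62.2% ± 6.79 with obese vehicle (SD, n = 5 each; exact permutation p = 0.0238, adjusted p = 0.0476), and obese vehicle replicate 2 was lowest at 51.1%. A larger share for those IDs leaves less of the summed FPKM to all others. Relative sequencing depth, estimated from the spacing of low values, was 1.30 ± 0.188 with MK-8722 10 mpk and 0.992 ± 0.206 with obese vehicle (SD, n = 5 each; exact permutation p = 0.0476, adjusted p = 0.0476). It ranged from 1.00 to 1.47 and from 0.788 to 1.30 in these groups, so the groups overlapped, and absolute depth is unknown. With 5 against 5 libraries the smallest p these tests allow is 0.00794. The part that these library differences play in the gene results was not tested.

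**Figure D1:**
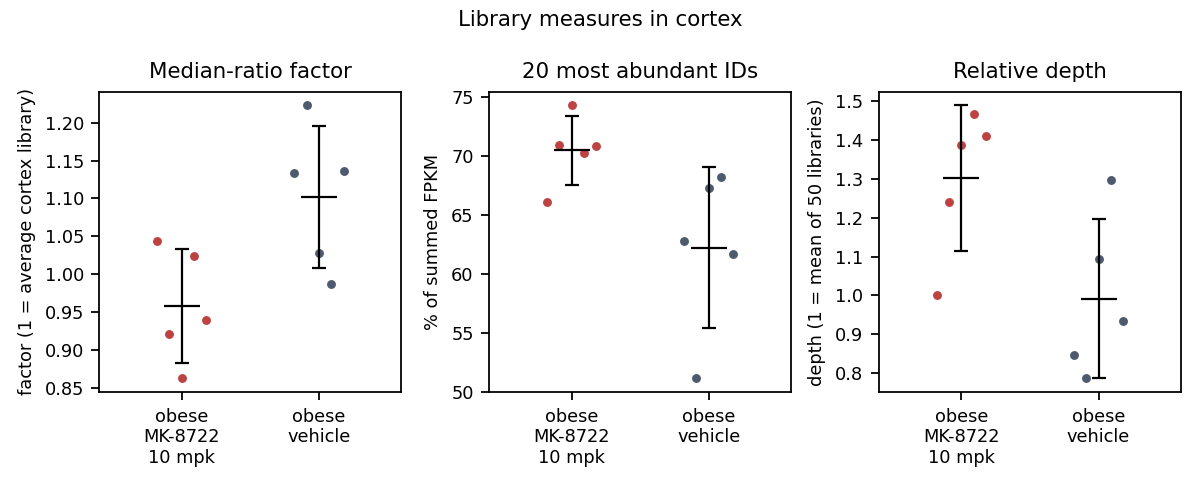
Median-ratio factor, share of the summed FPKM held by the 20 most abundant IDs (%) and relative depth in each cortex library of obese MK-8722 10 mpk (red) and obese vehicle (dark blue). Points are libraries and bars are mean ± SD (n = 5); all 3 measures differ between the groups and their ranges overlap.

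Of 32545 IDs, 12941 passed the filter on low values (1 FPKM or more, in no fewer than 5 of the 10 libraries) and were tested on log2(FPKM + 0.5) with limma. A call is a Benjamini-Hochberg adjusted p under 0.05. On the deposited FPKM, 104 IDs were higher and 411 lower with MK-8722 10 mpk than with obese vehicle, 515 calls in all (3.98% of the IDs tested; 0.804% higher and 3.18% lower). On the rescaled FPKM, 211 were higher and 92 lower, 303 calls (2.34%; 1.63% higher and 0.711% lower). The scale thus set which direction prevailed. The median log2 fold change of all tested IDs was -0.19 on the deposited and -0.01 on the rescaled scale. Called on both scales in the same direction were 101 IDs that rose and 92 that fell (193 in all, 1.49%; 0.78% and 0.711%). Those 92 were all of the rescaled falls, while 319 deposited falls were not called after rescaling. A further 110 IDs rose on the rescaled scale only, 3 on the deposited scale only, and none was called in opposite directions. At an unadjusted p under 0.05 there were 3882 deposited and 2293 rescaled IDs.

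**Figure D2:**
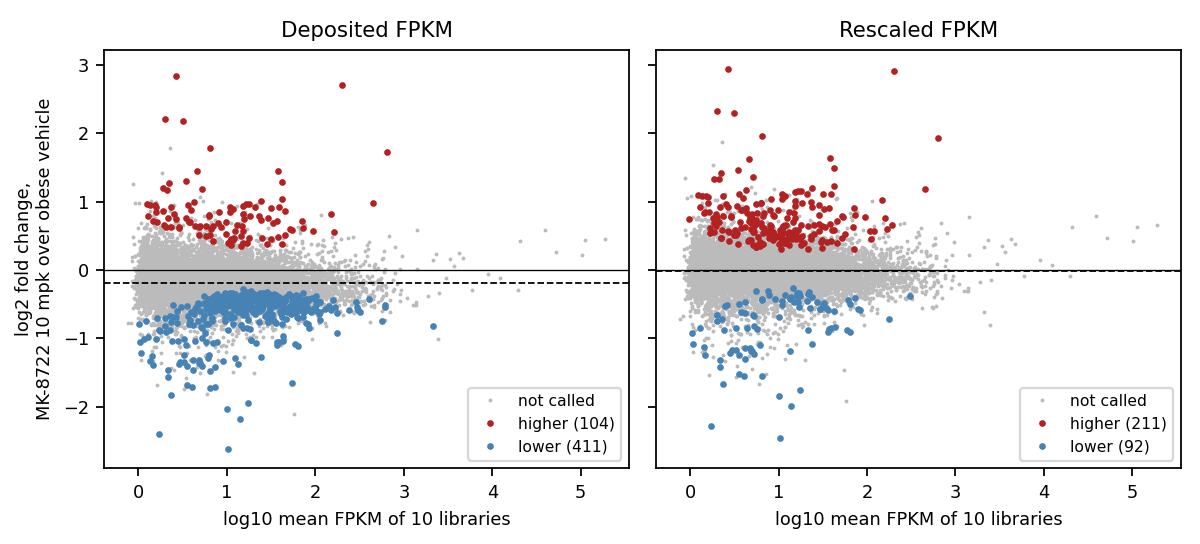
Log2 fold change of each tested ID (MK-8722 10 mpk over obese vehicle, on log2(FPKM + 0.5)) against its log10 mean FPKM over the 10 libraries, deposited on the left and rescaled on the right. Red and blue points are higher and lower calls, and the dashed line is the median of all IDs, at -0.19 on the deposited and -0.01 on the rescaled scale.

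These counts depended on single libraries and on the model. Calls shared by both scales numbered 102, 83 and 69 when MK-8722 10 mpk replicate 4, 5 or 7 was left out. They numbered 73, 86, 79 and 70 when obese vehicle replicate 1, 2, 3 or 6 was. They rose to 226 and 242 without MK-8722 10 mpk replicate 2 or 6, and to 286 without obese vehicle replicate 5. On the deposited scale the 515 calls became 924, 197, 131, 567 and 112 on omitting MK-8722 10 mpk replicate 2, 4, 5, 6 or 7. They became 133, 139, 170, 1553 and 112 on omitting obese vehicle replicate 1, 2, 3, 5 or 6. On the rescaled scale the 303 calls became 318, 162, 141, 370 and 131 on omitting MK-8722 10 mpk replicate 2, 4, 5, 6 or 7. They became 129, 127, 131, 386 and 124 on omitting obese vehicle replicate 1, 2, 3, 5 or 6. Whichever library was left out, 57 of the 193 IDs kept their call on both scales, 35 higher and 22 lower. The counts above take no account of the replicate number. Groups share the replicate numbers 2, 5 and 6, and their libraries deviated together. With the replicate number as a block there were 4715 deposited calls (406 higher, 4309 lower), 1258 rescaled calls (714 higher, 544 lower) and 929 on both scales (385 higher, 544 lower), which included all 193. With relative depth as a term, which the groups differ in, 4 IDs stayed called on both scales, 3 higher and 1 lower. With the block and depth together 22 were called on both scales, 21 of them among the 193.

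The 10 libraries also carry sample numbers in 2 separate ranges, with 2 MK-8722 10 mpk and 4 obese vehicle libraries in the lower and 3 and 1 in the higher. All 101 rises and all 92 falls had the same sign within each range. The median rescaled log2 difference of the rises was 0.86 in the lower and 0.75 in the higher range, and that of the falls was -0.60 and -0.58. These are descriptions, since the same libraries made the calls. With the range as a term 51 IDs were called on both scales, and in the lower range alone 13 were.

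Most changes were moderate. The 101 rises had a median rescaled log2 fold change of 0.91 (interquartile range 0.78 to 1.11, range 0.55 to 2.94); 37 were at least 2-fold, of which 4 were at least 4-fold, 61 lay between 1.5-fold and 2-fold and 3 below 1.5-fold. The 92 falls had a median of -0.66 (interquartile range -1.13 to -0.47, range -2.46 to -0.26). Of these, 27 were at least 2-fold (2 of them at least 4-fold), 25 lay between 1.5-fold and 2-fold and 40 below 1.5-fold. Sizes of rises and falls are not compared, since the demand for a call on both scales dropped 110 rescaled rises and 0 rescaled falls. The 5 values of each group did not overlap on either scale in 92 of the 101 rises and 77 of the 92 falls; among all tested IDs that held for 355 (2.74%; 1.13% higher and 1.62% lower). On the deposited scale alone, 161 of all tested IDs were higher and 853 lower without overlap (7.84%; 1.24% and 6.59%), and on the rescaled scale alone 410 and 260 were (5.18%; 3.17% and 2.01%). The calls were spread over expression levels. At a mean FPKM under 2 there were 10 rises and 7 falls among 1494 IDs, at 2 to 10 there were 39 and 38 among 5834, at 10 to 100 there were 47 and 45 among 5123, and at 100 or more 5 and 2 among 490. None of the 20 most abundant IDs was called on both scales (1 on the deposited, 0 on the rescaled). Of the 100 most abundant 1 was, as a rise, beside 1.49% of all tested IDs.

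Switches across 1 FPKM were rare. Of 12941 tested IDs, 5 had at least 1 FPKM in every MK-8722 10 mpk library and in no obese vehicle library. Called as rises on both scales were 3 of them, beside 0.78% of all tested IDs. The reverse held for 7 IDs, of which 3 were called as falls, beside 0.711% of all tested IDs. By definition these IDs passed the filter on low values through 1 group alone. With a wider gap, at least 1 in every library of one group and under 0.5 in every library of the other, there was 1 ID that was on with MK-8722 10 mpk, and 0 in the reverse direction.

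That ID, ENSRNOG00000011269, was the largest rise of the comparison. It passed the filter on low values only through the MK-8722 10 mpk libraries. Its entry into the test thus rested on the group where it was high. Its deposited FPKM was 4.40, 5.08, 5.68, 4.98 and 5.31 in the MK-8722 10 mpk libraries (replicates 2, 4, 5, 6 and 7), against 0.472, 0.306, 0.292, 0.246 and 0.129 in the obese vehicle libraries (replicates 1, 2, 3, 5 and 6). Every MK-8722 10 mpk library lay far above every vehicle library, with little spread among the treated ones. The lack of overlap in cortex, here and in the IDs below, was a condition of the rule that named them. The log2 fold change was 2.83 ± 0.15 deposited and 2.94 ± 0.15 rescaled (SE; limma, adjusted p = 1.75e-06 and 2.84e-06). With a pseudocount of 0.1 it was 3.79 and 3.95. Its smallest value above 0, corrected for relative depth, recurred in 9 libraries within 2%. The MK-8722 10 mpk libraries held 55.1 to 98.8 times that step and the vehicle libraries 1.51 to 5.00 times. Not all of these are whole multiples. If the step is about 1 read, the vehicle level rests on few reads. The other cortex groups were also low, at 0.589 ± 0.302 with MK-8722 1 mpk, 0.223 ± 0.106 with enalapril and 0.164 ± 0.139 in lean vehicle (FPKM, SD, n = 5 each). The level with 10 mpk exceeded that with 1 mpk by 2.53 and that in lean vehicle by 3.12 (rescaled log2; limma adjusted p = 0.000185 and 7.88e-07).

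In medulla the same ID reached 0.706, 0, 0.109, 0.801 and 0.681 FPKM with MK-8722 10 mpk (replicates 1, 2, 3, 5 and 6), against 0.115, 0.106, 0, 0.113 and 0 with obese vehicle (replicates 3 to 7). Of the treated medulla libraries 3 stood above all vehicle libraries, and the others overlapped with them. The medullary log2 fold change of 0.70 was not called (limma adjusted p = 0.253). The effect in cortex was larger than that in medulla by 2.24 ± 0.33 (SE, rescaled log2; limma interaction, adjusted p = 0.00822). With a pseudocount of 0.1 this difference was 2.48 and not called (adjusted p = 0.518), with a medullary change of 1.47.

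ENSRNOG00000006873 was the second largest rise and far more abundant. Its FPKM was 312, 392, 361, 231 and 440 in the MK-8722 10 mpk libraries (replicates 2, 4, 5, 6 and 7), against 37.3, 59.4, 50.7, 68.4 and 46.9 in the obese vehicle libraries (replicates 1, 2, 3, 5 and 6). The groups were widely separated, with replicate 6 lowest among the treated. The log2 fold change was 2.71 ± 0.19 deposited and 2.91 ± 0.23 rescaled (SE; limma, adjusted p = 3.53e-05 and 0.000302). In cortex of the remaining groups it averaged 80.3 ± 18.6 with MK-8722 1 mpk, 47.2 ± 11.3 with enalapril and 136 ± 11.9 in lean vehicle (FPKM, SD, n = 5 each). MK-8722 10 mpk thus stood above lean vehicle, by 1.22 on the rescaled log2 scale (limma adjusted p = 0.000299), and above 1 mpk by 2.31 (adjusted p = 0.000826). Lean vehicle exceeded obese MK-8722 1 mpk by 1.09 (adjusted p = 1.6e-05).

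The same ID in medulla had 237, 163, 249, 264 and 123 FPKM with MK-8722 10 mpk (replicates 1, 2, 3, 5 and 6), against 98.4, 50.9, 75.5, 52.1 and 17.6 with obese vehicle (replicates 3 to 7). These groups did not overlap either. The medullary log2 fold change was 2.12 ± 0.44, close to the threshold (SE, limma adjusted p = 0.045). It was the largest medullary rise among the 12941 IDs that passed the filter in cortex, the only IDs tested. The call was lost in 7 of 14 alternatives, each of which left out 1 library. The adjusted p was 0.104, 0.0649, 0.112 and 0.0923 on omitting MK-8722 10 mpk replicate 1, 2, 3 or 5, and 0.105, 0.0524 and 0.104 on omitting obese vehicle replicate 4, 5 or 6. The tissues were not shown to differ in this effect (difference 0.78, adjusted p = 0.797).

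ENSRNOG00000009589 was the largest fall at the pseudocount of 0.5. With 0.1 it fell less than ENSRNOG00000037118 (rescaled log2 fold changes -2.69 and -3.98), and the remaining IDs were not ranked at that setting. The FPKM of ENSRNOG00000009589 was 3.68, 2.81, 0.457, 5.36 and 1.93 with MK-8722 10 mpk (replicates 2, 4, 5, 6 and 7). It was 13.9, 17.5, 20.6, 26.1 and 11.0 with obese vehicle (replicates 1, 2, 3, 5 and 6). The groups did not overlap, as the naming rule required, and the treated libraries spread widely. The log2 fold change was -2.63 ± 0.42 deposited and -2.46 ± 0.42 rescaled (SE; limma, adjusted p = 0.0131 and 0.0133). With relative depth as a term the change was as large, -2.74 deposited and -2.70 rescaled, but not called (adjusted p = 0.156 and 0.117), and with the number range as a term it was 0.0536 on the deposited scale. The mean in cortex was 7.46 ± 3.47 with MK-8722 1 mpk, 17.4 ± 5.51 with enalapril and 0.949 ± 0.221 in lean vehicle (FPKM, SD, n = 5 each). The MK-8722 10 mpk mean lay between those of obese and lean vehicle, and its difference from lean, 0.92, was not called (limma adjusted p = 0.0773; 0.000665 without MK-8722 10 mpk replicate 5). The difference between 10 and 1 mpk, -1.20, was not called either (adjusted p = 0.138; 0.0418 in a fit of all cortex groups).

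In medulla this ID was low in both groups. It averaged 0.342 ± 0.150 FPKM with MK-8722 10 mpk and 0.795 ± 0.386 with obese vehicle (SD, n = 5 each). The medullary change of -0.50 was not called (limma adjusted p = 0.301), and neither was the difference between tissues of -1.96 (adjusted p = 0.369).

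ENSRNOG00000037118, the second largest fall at the pseudocount of 0.5, was split within the treated group. Its FPKM was 0.0035, 0.004, 0.0025, 1.54 and 0.0032 with MK-8722 10 mpk (replicates 2, 4, 5, 6 and 7), against 2.84, 4.89, 3.08, 2.78 and 2.04 with obese vehicle (replicates 1, 2, 3, 5 and 6). The treated libraries other than replicate 6 were close to 0, and replicate 6 was still below every vehicle library. Of the treated libraries only replicate 6 reached 1 FPKM, so the ID passed the filter on low values through the vehicle libraries. Its entry into the test thus rested on the group where it was high. The log2 fold change was -2.40 ± 0.38 deposited and -2.29 ± 0.37 rescaled (SE; limma, adjusted p = 0.0117 and 0.011). With a pseudocount of 0.1 it was -4.11 and -3.98 (adjusted p = 0.0166 and 0.0174), so its size depends on the pseudocount. With relative depth as a term it was -2.54 and -2.52 and not called (adjusted p = 0.124 and 0.105). Values close to 0 also occurred in 1 of the MK-8722 1 mpk libraries (0.0049) and in 2 of the enalapril libraries (0.0046 and 0.0047). The cortex mean was 1.90 ± 1.62 with MK-8722 1 mpk, 0.694 ± 0.964 with enalapril and 0.400 ± 0.274 in lean vehicle (FPKM, SD, n = 5 each).

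Values this small need not stand for whole reads. Over all IDs and libraries, 11520 of 961373 values above 0 were under 0.001 and the smallest was 1.4e-45, so reads may have been divided between features, which was not tested. In medulla the ID ranged from 0.0035 to 1.17 with MK-8722 10 mpk and from 0.0033 to 4.77 with obese vehicle, and its change of -0.58 was not called (limma adjusted p = 0.729). Its differences from 1 mpk (-1.41, adjusted p = 0.181) and from lean vehicle (-0.46, adjusted p = 0.392) were not called. They were called without MK-8722 10 mpk replicate 6, at -1.81 (adjusted p = 0.0412) and -0.86 (adjusted p = 0.0146).

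**Figure D3:**
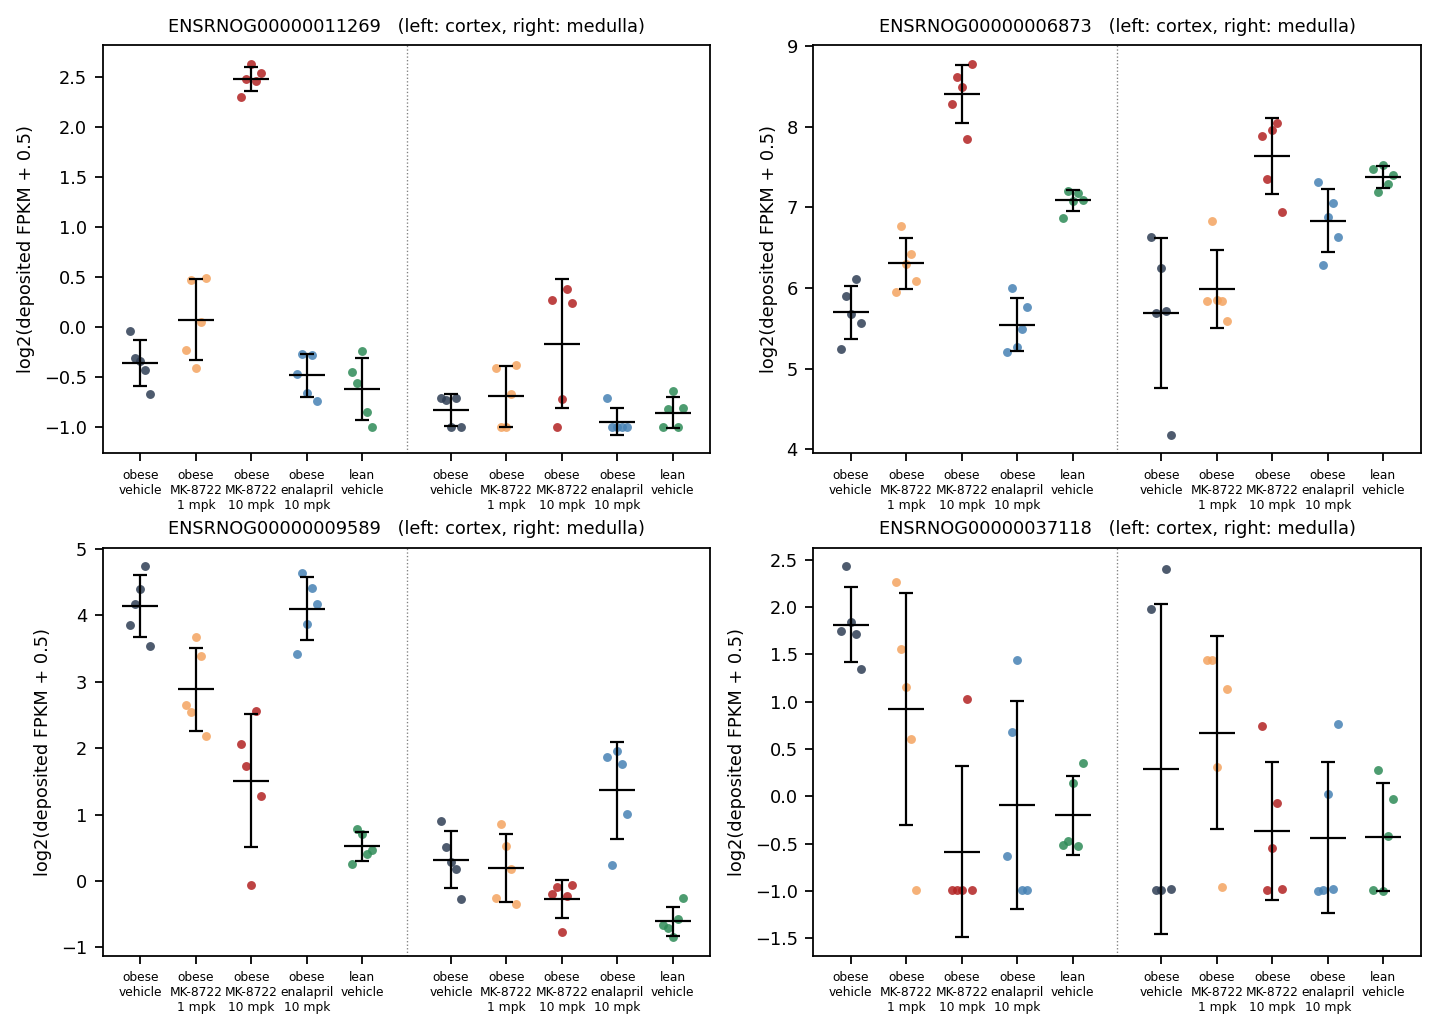
Log2(deposited FPKM + 0.5) of the 2 largest rises (top) and the 2 largest falls (bottom) in every library, with cortex left and medulla right of the dotted line and MK-8722 doses in rising order after obese vehicle. Points are libraries and bars are mean ± SD (n = 5). In cortex the MK-8722 10 mpk points (red) do not overlap with obese vehicle (dark blue) in any of the 4 IDs, which the naming rule required.

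The 193 IDs were next read in libraries outside the 10 that were tested. In medulla the library measures leaned the same way as in cortex. The rescaling factor was 0.892 to 1.03 with MK-8722 10 mpk and 1.08 to 1.15 with obese vehicle. Relative depth was 0.727 to 1.03 and 0.580 to 0.789 in these groups, which overlapped. The part that this plays in the shared signs was not tested. In medulla, MK-8722 10 mpk against obese vehicle gave 126 higher and 54 lower calls among the same 12941 IDs (1.39%; 0.974% and 0.417%). Of the 101 cortical rises, 95 (94.1%) were also higher in medulla, where 45.5% of all tested IDs were, and 33 (32.7%) were called higher and 0 lower. Of the 92 cortical falls, 88 (95.7%) were lower in medulla, where 54.5% of all tested IDs were, and 5 (5.43%) were called lower and 0 higher. The median medullary log2 fold change was 0.58 for the rises and -0.31 for the falls, beside -0.02 for all IDs. The direction seen in cortex was thus shared by most of these IDs. Their median sizes in the tissues are not compared, since the IDs were chosen for a large change in cortex. The labels do not tie cortex to medulla libraries of one rat, so the tissues may share animals.

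The medullary count moved with the scale and with single libraries. Deposited values gave 69 higher and 422 lower calls in medulla among the same 12941 IDs. The 180 rescaled calls became 95, 42 and 102 on omitting MK-8722 10 mpk replicate 1, 3 or 5, and 103, 33, 35 and 53 on omitting obese vehicle replicate 3, 4, 6 or 7. Read on the deposited scale, 98.9% of the falls were lower in medulla, where 82.8% of all tested IDs were, and 88.1% of the rises were higher, where 17.2% of all tested IDs were. The difference between tissues was called for 9 of the 12941 IDs (0.0695%), 6 with a higher (0.0464%) and 3 with a lower (0.0232%) effect in cortex, with 880 at an unadjusted p under 0.05 and 5 calls without medulla MK-8722 10 mpk replicate 6. Among the 193 IDs, 2 rises and 1 fall had a called difference between tissues.

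A second reading compared cortex of lean vehicle with obese MK-8722 1 mpk rats. This pair was chosen after the data had been seen because it shares no library with the 10 above. Both groups did enter the cortex rescaling factors. Their library measures again leaned the same way. The factor was 0.87 to 0.90 in lean vehicle and 1.07 to 1.13 with MK-8722 1 mpk. Relative depth was 1.22 to 1.38 and 0.936 to 1.23, and the part of these differences was not tested. Among the same 12941 IDs the pair gave 2965 higher and 3692 lower calls on the rescaled scale (51.4%, made up of 22.9% and 28.5%). On the deposited scale 1231 were higher and 7466 lower. Of the 101 rises, 92 (91.1%) were higher in lean vehicle, where 46.1% of all tested IDs were; 73 were called higher and 5 lower. Of the 92 falls, 63 (68.5%) were lower in lean vehicle, where 53.9% of all tested IDs were; 55 (59.8%) were called lower and 12 higher. The median log2 difference was 0.51 for the rises and -0.47 for the falls, beside -0.03 for all IDs. On the rescaled scale the falls were more mixed than the rises, with an interquartile range of -1.24 to 0.07 against 0.28 to 0.78. Fewer of the rises than of the falls kept their sign on the deposited scale, as given below. Rises and falls were also not picked alike, since the demand for a call on both scales dropped rescaled rises alone.

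These shares also moved with the scale. On the deposited scale 75.2% of the rises were higher in lean vehicle, beside 20.1% of all tested IDs, and 91.3% of the falls were lower, beside 79.9% of all tested IDs. With the larger set of calls from the replicate block the shares were 77.1% of the rises and 67.8% of the falls. Same-signed in both readings, medulla and lean vehicle against 1 mpk, were 86 of the 101 rises (85.1%) and 63 of the 92 falls (68.5%), beside 30.1% of all tested IDs that were higher and 38.5% that were lower in both. Called in that direction in both readings were 27 of the rises (26.7%) and 5 of the falls (5.43%), beside 0.649% and 0.325% of all tested IDs. The largest rise, ENSRNOG00000011269, was among the 9 rises not higher in lean vehicle, with a log2 difference of -0.59 from 1 mpk (limma adjusted p = 0.0397). Its adjusted p was 0.0596, 0.0916 and 0.0994 on omitting lean vehicle replicate 2, 6 or 7, and 0.0901, 0.0602 and 0.0942 on omitting 1 mpk replicate 2, 6 or 7.

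**Figure D4:**
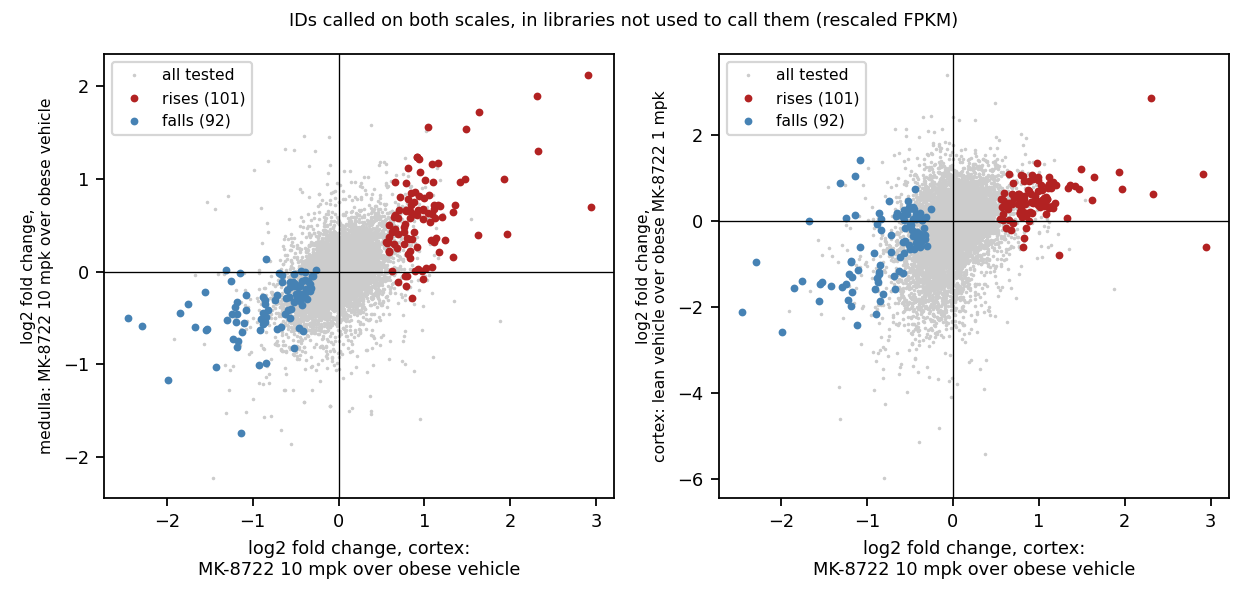
Rescaled log2 fold change in cortex (MK-8722 10 mpk over obese vehicle, horizontal) against that in medulla (left panel) and against lean vehicle over obese MK-8722 1 mpk in cortex (right panel). Grey points are all tested IDs, red the 101 rises and blue the 92 falls; 95 of the rises and 88 of the falls keep their sign on the left, 92 and 63 on the right.

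The mean log2 rescaled level of the called IDs shows where each library stood. For the 101 rises it was 3.86 ± 0.23 with MK-8722 10 mpk and 2.85 ± 0.14 with obese vehicle in cortex, a gap fixed by the choice of IDs, which also favours any other group over obese vehicle. Outside those groups it was 2.95 ± 0.11 with MK-8722 1 mpk, 2.98 ± 0.06 with enalapril and 3.47 ± 0.06 in lean vehicle (SD, n = 5 each). Each lean vehicle library lay above every MK-8722 1 mpk and enalapril library, none of which was among the 10 tested libraries. For the 92 falls it was 2.85 ± 0.17 with MK-8722 10 mpk and 3.66 ± 0.09 with obese vehicle, against 3.53 ± 0.15 with MK-8722 1 mpk, 3.45 ± 0.08 with enalapril and 2.95 ± 0.03 in lean vehicle. In medulla the rises averaged 3.20 ± 0.14 with MK-8722 10 mpk, 2.61 ± 0.09 with obese vehicle and 3.29 ± 0.07 in lean vehicle, and the falls 3.17 ± 0.08, 3.54 ± 0.07 and 2.90 ± 0.05 in the same groups.

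**Figure D5:**
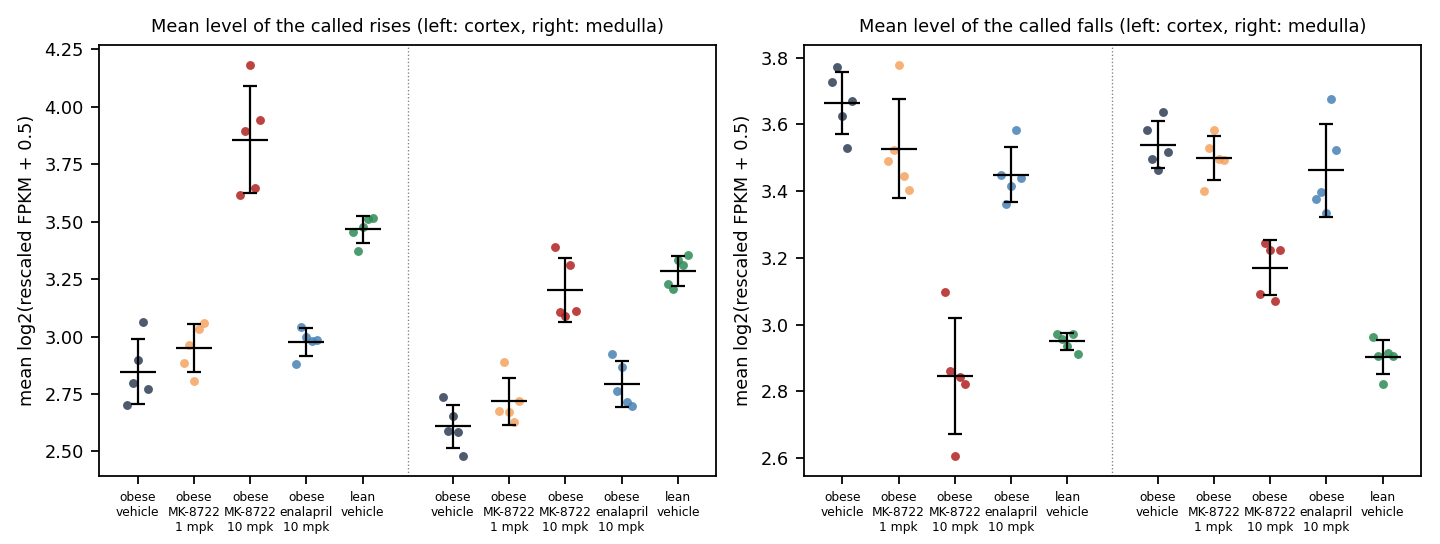
Mean log2(rescaled FPKM + 0.5) over the 101 rises (left panel) and the 92 falls (right panel) in each library, with cortex left and medulla right of the dotted line and MK-8722 doses in rising order after obese vehicle. Points are libraries and bars are mean ± SD (n = 5); lean vehicle lies above MK-8722 1 mpk for the rises and below it for the falls in both tissues.

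The neighbouring cortex groups were also compared as wholes, over the same 12941 IDs. On the rescaled scale MK-8722 10 mpk was higher than 1 mpk in 241 IDs and lower in 158 (3.08%, made up of 1.86% and 1.22%). On the deposited scale 169 were higher and 1837 lower. The 399 rescaled calls became 628, 102, 141, 1398 and 97 on omitting MK-8722 10 mpk replicate 2, 4, 5, 6 or 7, and 80, 169, 66 and 139 on omitting 1 mpk replicate 1, 2, 4 or 6. Against lean vehicle it was higher in 2812 IDs and lower in 1849 on the rescaled scale (36%; 21.7% and 14.3%), and 3396 and 1243 on the deposited scale. Obese cortex on MK-8722 10 mpk thus had many more calls against lean vehicle than against obese vehicle in these fits. Both comparisons share the MK-8722 10 mpk libraries. Counts of calls also depend on the spread between libraries, with a median SD of 0.131 in lean and 0.169 in obese vehicle (rescaled log2 scale). The count against obese vehicle moved widely with the model, as given below.

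The treated group was not uniform. The median SD of an ID between libraries, on the rescaled log2 scale, was 0.190 with MK-8722 10 mpk and 0.169 with obese vehicle, against 0.167 with MK-8722 1 mpk, 0.137 with enalapril and 0.131 in lean vehicle. On the first principal component of the 10 libraries, which held 35.7% of the variance of the rescaled values, the MK-8722 10 mpk libraries lay at -6.01, 19.3, 33.6, -8.34 and 20.2 (replicates 2, 4, 5, 6 and 7), against -24.3, -24.0, -0.85, 12.6 and -22.2 for obese vehicle (replicates 1, 2, 3, 5 and 6). The groups overlapped on this axis. The 4 libraries with its highest values (MK-8722 10 mpk replicates 4, 5 and 7 and obese vehicle replicate 5) were the 4 with the lowest rescaling factors, and the 3 with its lowest values were the 3 with the highest factors. Division by those factors therefore left an axis with nearly their order, and its source was not tested. The second component (17.6%) set MK-8722 10 mpk replicate 6 apart at 36.4, the next highest library being MK-8722 10 mpk replicate 2 at 7.18. Without replicate 6 there were 242 calls on both scales, of which 162 were among the 193.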

How the data were processed

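The authors deposited 1 table of FPKM values for 50 libraries and 32545 Ensembl gene IDs, per the file headers; columns were assigned through the library numbers that the labels list. The aligner, the read counter and the build were not given in the sources used here. The reference gene table paired 0 IDs with names, so the lists of pathway and cell type genes, and sequences by gene, could not be applied. The members and lists were chosen with earlier results of these data known.

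FPKM are not counts, so values were tested as log2(FPKM + 0.5), which understates changes of low genes, with limma 3.58.1 in R 4.3.3 (mean-variance trend, robust moderation, two-sided, Benjamini-Hochberg over 12941 IDs with FPKM of at least 1 in 5 or more of the 10 libraries). The rescaled values were divided by each library's median ratio to the geometric mean, per ID, of the 25 libraries of its tissue, from 10954 IDs in cortex. Single values were compared with exact permutation tests. Named IDs were, by rule, the 2 largest rises and 2 largest falls by rescaled change among IDs called in 1 direction on both scales, with a mean of at least 2 FPKM where higher and with groups that did not overlap on either scale; 88 rises and 74 falls were eligible.

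Absolute depth is unknown. In 4523 IDs, 96.6% of 53707 low values were whole multiples of the value of 1 read within 0.1 reads, which gave relative depths of 0.580 to 1.48. No 2 libraries held identical values. The replicate numbers 2, 5 and 6 occur in both groups. The 3 pairs' deviations correlated across IDs with r of 0.27 to 0.46, above the limit of 0.1 on both scales. The numbers were therefore used as a block in alternative fits, although the labels state no pairing. The main tests had no block. Replicate 2 also had the highest and replicate 5 the lowest rescaling factor of each group. Whether the correlations follow from this was not tested. Of the 3 MK-8722 10 mpk libraries with a partner 2 correlated best with it, and 3 of 3 obese vehicle libraries did. Alternatives were other pseudocounts, filters, scalings and fits, terms for depth and number range, the replicate block, and each library left out. The replicate block with depth or number range, and the reading in lean vehicle against 1 mpk, were added after the data had been seen. The fits and the depth estimate were tested on simulated data.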

Additional observations from a re-analysis of the deposited data

Results flagged for a closer look

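ENSRNOG00000037118 had 1 library far from the others of its group: MK-8722 10 mpk cortex replicate 6, at 1.54 FPKM, lay at a gap of 0.999 of the group's range, above Dixon's critical value of 0.71 for 5 samples. The same library stood apart on the second principal component of the 10 cortex libraries, at 36.4 with a gap of 0.791 of the range. In medulla, ENSRNOG00000011269 was at 0.114 FPKM in enalapril replicate 2 and listed at 0 in the other libraries of that group, a gap of 1. That value is 1.00 times the ID's smallest step. A gap of 1 arises whenever all other values of a group are 0. ENSRNOG00000006873 was at 114 FPKM in medulla MK-8722 1 mpk replicate 2, with a gap of 0.855. If values are normally distributed, which was not tested, chance marks about 1 in 20 groups in this way, and 4 of 52 groups were marked. The change of ENSRNOG00000011269 under MK-8722 10 mpk differed between tissues, by 2.24 more in cortex than in medulla on the rescaled log2 scale (limma interaction, adjusted p = 0.00822); with a pseudocount of 0.1 the difference was 2.48 and not called (adjusted p = 0.518).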

How the results depend on the processing

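No change of the 4 IDs was reversed, but which direction had more calls depended on the scale in cortex, in medulla and for 10 against 1 mpk. Calls of MK-8722 10 mpk against obese vehicle in cortex, given as deposited, rescaled and on both scales (515, 303 and 193), numbered 182, 190 and 107 without a filter on low values, 3615, 1115 and 799 in a fit of all 25 cortex libraries, and 3952, 1267 and 904 with a fixed replicate block added to it. They numbered 4715, 1258 and 929 with the replicate block, 11, 5 and 4 with relative depth as a term, 61, 103 and 51 with the number range as a term, 14, 29 and 13 in the lower range alone, and 27, 30 and 22 with block and depth. With block and range, 2955 deposited and 374 on both scales were called. The cause of these moves was not tested. A pseudocount of 0.1 and other scalings gave 180 to 193 calls on both scales. Leaving out 1 library gave 112 to 1553 deposited, 124 to 386 rescaled and 69 to 286 on both scales; 33 to 222 in medulla, 5 to 11 for the tissue difference, 66 to 1398 against 1 mpk, 4007 to 4910 against lean vehicle and 6068 to 6805 for lean vehicle against 1 mpk.

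Medulla had 491 calls deposited and 690 in the fit of all groups, the tissue difference 28 in the fit of all groups, and 10 against 1 mpk 2006 deposited and 1311 in the fit of all groups. The rises higher in lean vehicle than with 1 mpk were 75.2% deposited and 77.1% with the replicate block. The falls lower in medulla were 98.9% deposited and 86.9% with the replicate block, and those lower in lean vehicle 91.3% deposited and 78.2% without MK-8722 10 mpk replicate 6. Of the alternatives for the 4 IDs, 464 left the call as it was, 23 lost it and 5 gained it. The replicate block changed no call of the 4 IDs. Beyond the cortex counts given above, which it moved to 4715, 1258 and 929, it moved no count by over 1.5 times. Depth, which differs between the groups and is known only in relative terms, limits low IDs. With relative depth as a term 4 IDs stayed called on both scales in cortex, so calls were lost at all levels of expression. The part that depth plays in this loss was not tested. The 5 libraries a group limit all IDs.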
